A study of Mus musculus with 48 samples.

Results

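The mRNAs described here encode 57 factors that shorten, decap, degrade or mark mRNA in mouse cells: the CCR4-NOT deadenylase and its BTG/TOB adaptors, other deadenylases, the decapping complex, the 5′-3′ exonucleases, the nonsense-mediated decay (NMD) factors, the miRNA silencing proteins, the RNA exosome with the SKI complex, and the TTP family of AU-rich element binding proteins. They were chosen by gene symbol from this list of roles, all 57 were found among the 50600 genes counted, and all 57 passed the filter on low counts that kept 13889 genes. The cells were mPDAC cells, a mouse pancreatic ductal adenocarcinoma line whose labels give an FVB/N x C57BL6 background and an age of 8 weeks. N6L-treated cultures received N6L, a pseudopeptide antagonist of nucleolin, at 50 µM (the dose named in the study's methods) for 48 h. Control (non-treated, NT) cultures did not receive it. Every culture was exposed to emetine, an inhibitor of translation elongation, before lysis, and nuclei and mitochondria were removed by centrifugation. Polyadenylated RNA was sequenced from the cytoplasmic lysate and from the pooled polysomal fractions of a sucrose gradient of the same lysate, for 3 NT cultures (numbered 1, 2 and 4) and 3 N6L cultures (1, 2 and 3), which gave 12 libraries. A single cell line was used, so the spread between cultures does not cover differences between lines.

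Decay of most mRNAs starts with removal of the poly(A) tail, by PAN2-PAN3 and then by CCR4-NOT. The cap is then removed by DCP2 with its activators, and the body is degraded from the 5′ end by XRN1 or from the 3′ end by the exosome with the SKI helicase. BTG/TOB proteins, the GW182 (TNRC6) proteins bound to Argonaute, and TTP bound to AU-rich elements each bring CCR4-NOT to chosen mRNAs, whereas the UPF and SMG proteins remove mRNAs on which translation ends too early. AU-rich elements are best known from short-lived mRNAs of immediate-early genes and cytokines.

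Libraries held between 19519911 and 44972333 counts, and values below are CPM, the counts of a gene relative to the TMM-scaled total of its library, given in the order NT 1, 2, 4 and N6L 1, 2, 3. CPM are shares of the mRNA in a library, so less of an mRNA per cell and fewer cells that hold it cannot be told apart. The study reported that polysome peaks were strongly reduced after N6L. Polysomal CPM are shares of the polysomal mRNA, so their changes do not give the change in the amount of an mRNA on polysomes. Of the marker genes of the labelled cell type, Krt8, Krt18, Krt19, Krt7, Cdh1 and Sox9 were present, while Epcam was close to 0. In the cytoplasm Sox9 rose (1.09, adjusted p = 0.0023) and Krt7 fell (-0.97, adjusted p = 0.00829) after N6L, and the part of these shifts in the results below was not tested. Of the acinar, endocrine, leukocyte, endothelial and fibroblast markers, Cela1 reached a mean of 44.9 CPM, Cd68 reached 1.42 CPM and Csf1r 1.29 CPM, every other gene was under 1 CPM, and Cpa1, Amy2a5, Ptf1a, Ins1, Ins2 and Gcg had no count. The polysomal library of N6L culture 3 stood apart: the 21 members with transcripts over 5000 nt had a median log2 deviation of -0.94 from their mean over the 12 libraries there, against -0.25 and 0.057 in N6L cultures 2 and 1. NT culture 4 was the least like the other NT cultures in both fractions. The numbers of members past the test in the cytoplasm, in the polysomes and in the polysome-to-cytoplasm ratio are therefore also given without the cultures that move them most.

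The nucleolin mRNA (Ncl), which encodes the target of N6L, was at 974, 1556 and 1477 CPM in the NT cultures and 1157, 1297 and 1261 CPM in the N6L cultures in the cytoplasm and at 885, 813 and 923 CPM in the NT cultures and 798, 478 and 231 CPM in the N6L cultures in the polysomes. Its cytoplasmic levels overlapped, with a log2 fold change of -0.11 (SE 0.31, adjusted p = 0.812). Its polysomal levels were lower in every N6L culture but did not pass the test (log2 fold change -0.80, SE 0.31, adjusted p = 0.122). With offsets for transcript length and GC content, fitted per library, Ncl fell in both fractions (log2 fold change -0.68, adjusted p = 0.0335 in the cytoplasm, and -0.84, adjusted p = 0.0172 in the polysomes).

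In the cytoplasm, 13 of the 57 members rose and 7 fell after N6L at an adjusted p under 0.05 (edgeR quasi-likelihood test, Benjamini-Hochberg adjustment over 13889 genes, 3 cultures a group), beside 14.5% of all genes tested that rose and 13.8% that fell. The shares of members were 22.8% and 12.3%. The largest increases were Btg2, Zfp36 and Zfp36l1, and the largest decreases were the exosome subunits Exosc4, Exosc8 and Exosc5. The 2 treatments did not overlap in 27 members that were higher and 11 that were lower after N6L, beside 29.3% and 25.6% of all genes. The median log2 change of the 57 members was 0.30, against 0.042 over all genes. Summed over the members, the cytoplasmic level was 3991, 4134 and 3825 CPM in the NT cultures and 5183, 5288 and 5181 CPM in the N6L cultures, so that all N6L cultures lay above all NT cultures. Most of this rise was in the TTP family, with sums of 307, 361 and 233 CPM in the NT cultures and 936, 963 and 957 CPM in the N6L cultures, and in the BTG/TOB adaptors, with sums of 412, 445 and 313 CPM in the NT cultures and 729.8, 769 and 714 CPM in the N6L cultures. These counts changed with the cultures used and with offsets for transcript length and GC content. Without N6L culture 2, 9 members passed, beside 9.24% of all genes, and without NT culture 4, 14 passed, beside 15.49%. With the offsets, 8 rose and 11 fell, beside 12.1% and 18% of all genes, and the median was -0.064 against -0.044, so that the members stood close to all genes.

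**Figure D1:**
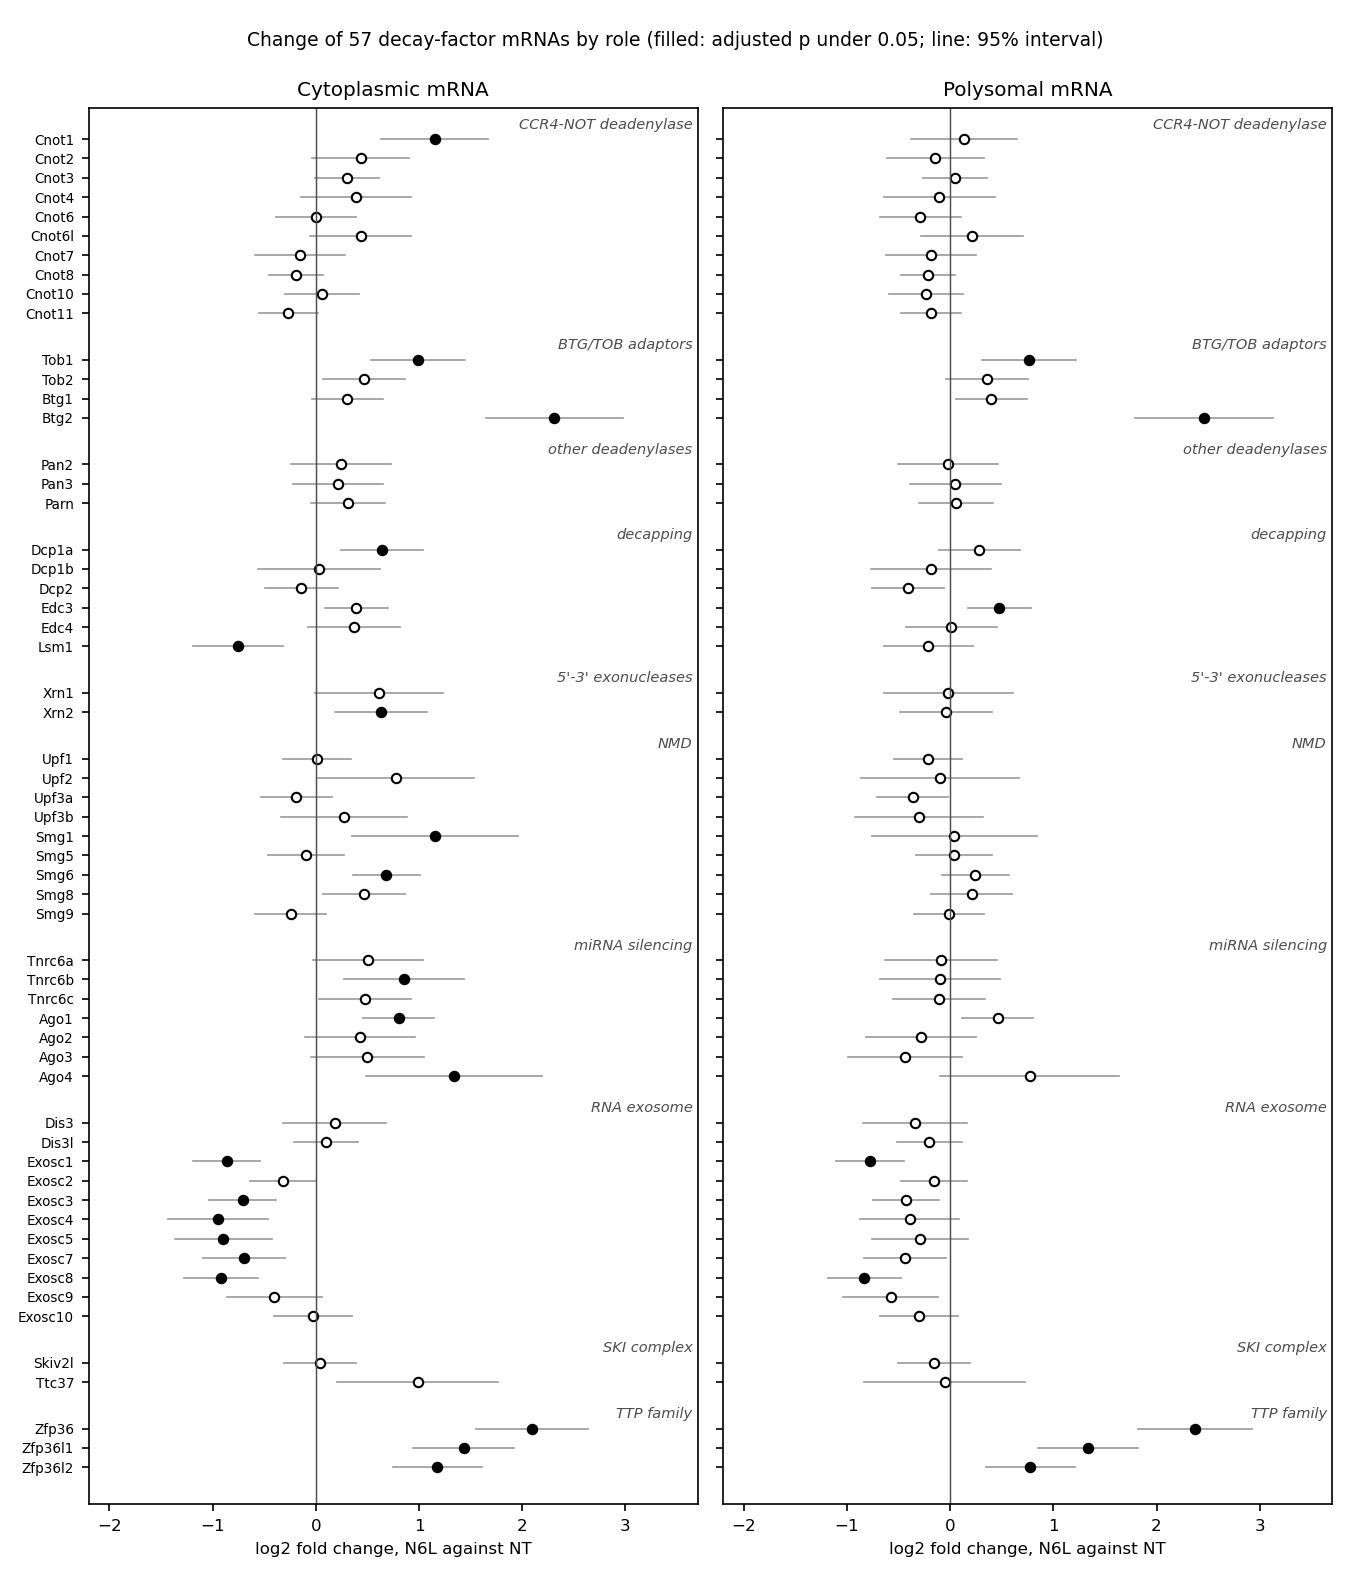
Log2 fold change between N6L and NT of each of the 57 members, grouped by role, in the cytoplasm (left) and in the polysomes (right). Filled points passed an adjusted p of 0.05, open points did not, and lines are 95% intervals. In both panels Btg2 and the 3 TTP family mRNAs lie to the right of 0, and in the left panel 6 of the 11 exosome mRNAs are filled and lie to the left of 0.

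The TTP family was the only role in which every member rose in both fractions. These zinc finger proteins bind AU-rich elements and recruit CCR4-NOT, and their own mRNAs are known to carry such elements. The heptamer TATTTAT was searched on the sense strand of the annotated 3′ UTR (GENCODE vM21, GRCm38), where it was found 3 times in each of Zfp36, Zfp36l1 and Zfp36l2 and once in Btg2, but not in Tob1. It was present in 21 of the 56 members with an annotated 3′ UTR (37.5%) and in 29.6% of 12103 tested genes. The members' 3′ UTRs had a median length of 1246 nt, against 1114 nt over those genes. A match is a description of the sequence and not evidence of binding. Among the members not called in either fraction, Ago2 held 5, Ago3 held 4 and Cnot6l held 3, in longer 3′ UTRs. Ago4 has a 3′ UTR of 3682 nt without the heptamer. Its cytoplasmic log2 change, which rests on few counts, was above that of Zfp36l2 as reported (1.34 against 1.18). With offsets for length and GC content it was below (0.85 against 1.04). The following 29-base windows, 1 from each TTP family mRNA and 1 from Btg2, show the heptamer in capitals.
Zfp36 chr7:28376951-28376979 (minus strand): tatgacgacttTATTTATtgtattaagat
Zfp36l1 chr12:80108422-80108450 (minus strand): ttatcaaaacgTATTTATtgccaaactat
Zfp36l2 chr17:84184914-84184942 (minus strand): actatttaactTATTTATtatcttgtgaa
Btg2 chr1:134077249-134077277 (minus strand): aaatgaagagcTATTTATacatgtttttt

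Zfp36, which encodes tristetraprolin (TTP), was at 114, 152 and 87.0 CPM in the NT cultures and 505, 484 and 519.8 CPM in the N6L cultures in the cytoplasm. The lowest N6L culture was above the highest NT culture by more than the whole spread of the NT group, and the increase was 4.27-fold (log2 fold change 2.09, SE 0.26, adjusted p = 0.000507). Its polysomal levels were 106, 165 and 77.2 CPM in the NT cultures and 525, 637 and 639 CPM in the N6L cultures, again without overlap, a 5.17-fold increase (log2 fold change 2.37, SE 0.26, adjusted p = 0.000511). Zfp36l1, a paralog known for its part in differentiation, was at 82.7, 92.2 and 68.2 CPM in the NT cultures and 228, 228 and 200.3 CPM in the N6L cultures in the cytoplasm and at 65.6, 73.3 and 39.1 CPM in the NT cultures and 166, 171 and 112 CPM in the N6L cultures in the polysomes. Both fractions rose without overlap (log2 fold change 1.43, SE 0.23, adjusted p = 0.00172 in the cytoplasm, and 1.34, SE 0.23, adjusted p = 0.00447 in the polysomes). Zfp36l2, the remaining paralog, was at 110.5, 117 and 78.0 CPM in the NT cultures and 202, 252 and 237 CPM in the N6L cultures in the cytoplasm and at 122, 132 and 85.8 CPM in the NT cultures and 203, 219.7 and 159 CPM in the N6L cultures in the polysomes. It rose by 1.18 on the log2 scale in the cytoplasm (SE 0.20, adjusted p = 0.00218) and by 0.78 in the polysomes (SE 0.20, adjusted p = 0.0292). The cytoplasmic increase of all 3 passed the test when any 1 culture was left out and with offsets for length and GC content. In the polysomes, the Zfp36l2 call was lost without N6L culture 1, N6L culture 2, NT culture 1 or NT culture 4, and the Zfp36l1 call without N6L culture 2.

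Among the BTG/TOB adaptors, which bind the CCR4-NOT deadenylase and slow proliferation, Btg2 and Tob1 rose in both fractions and Btg1 and Tob2 did not pass the test. Of all genes, 14.5% rose in the cytoplasm and 6.01% in the polysomes. Btg2, an immediate-early and p53-responsive gene, was at 55.6, 90.4 and 40.3 CPM in the NT cultures and 309, 308 and 305 CPM in the N6L cultures in the cytoplasm. The NT cultures differed among themselves by more than 2-fold and the N6L cultures hardly at all, with no overlap (4.96-fold, log2 fold change 2.31, SE 0.31, adjusted p = 0.000789). In the polysomes Btg2 was at 57.3, 99.3 and 40.0 CPM in the NT cultures and 338, 359.6 and 382 CPM in the N6L cultures, a 5.49-fold increase (log2 fold change 2.46, SE 0.31, adjusted p = 0.00104). Tob1 was at 24.9, 21.5 and 14.1 CPM in the NT cultures and 35.4, 43.8 and 41.3 CPM in the N6L cultures in the cytoplasm and at 22.1, 19.98 and 14.5 CPM in the NT cultures and 31.1, 35.5 and 29.6 CPM in the N6L cultures in the polysomes. The groups were apart in both fractions (log2 fold change 0.99, SE 0.21, adjusted p = 0.00561 in the cytoplasm, and log2 fold change 0.77, SE 0.21, adjusted p = 0.0376 in the polysomes). The polysomal Tob1 call was lost whichever culture was left out, and the cytoplasmic one without N6L culture 2. Btg1, at 241 ± 36.5 CPM (SD, n = 3) in NT cytoplasm and 298 ± 28.0 after N6L, and Tob2 had log2 fold changes of 0.30 and 0.47 that did not pass (adjusted p = 0.163 and 0.0699).

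Promoter windows of the 2 mRNAs with the largest increases, Btg2 and Zfp36, are shown. RefSeq promoter windows of 300 bases (GRCm38.p6), most of each upstream of the start, were given for 48 of the 57 members and searched on both strands. Members were counted by gene. The percentages are shares of all 32851 windows, which were not limited to the genes tested. A CArG box, the element bound by serum response factor, was found in 1 member, Zfp36, 58 bases before the start, and in 1.63% of 32851 promoters. The cAMP response element TGACGTCA was found in 1 member, Btg2, 166 bases before the start, and in 1.79% of promoters. The EGR site GCGNGGGCG was found in 7 members and in 5.55% of promoters. The 7 were Zfp36 and Btg2, Ago1 and Ago4, Edc3, Dis3l and Exosc8. Ago1 and Ago4 passed as higher in the cytoplasm alone and Edc3 in the polysomes alone. Dis3l passed in neither fraction, and Exosc8 fell in both. The AP-1 site TGANTCA was found in 2 members, Zfp36l1 and Pan2, and in 7.81% of promoters. None of these motifs contains another of them. As with the heptamer, a match is not evidence of binding, and the part of these sites in the changes was not tested. In the windows below the capitals mark the CArG box of Zfp36 and the cAMP response element of Btg2.
Zfp36 chr7:28379227-28379336 (minus strand): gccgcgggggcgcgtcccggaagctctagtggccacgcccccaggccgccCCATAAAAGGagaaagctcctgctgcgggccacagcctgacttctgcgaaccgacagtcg
Btg2 chr1:134079264-134079371 (minus strand): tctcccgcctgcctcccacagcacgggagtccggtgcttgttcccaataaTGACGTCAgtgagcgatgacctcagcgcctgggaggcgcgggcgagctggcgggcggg

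**Figure D2:**
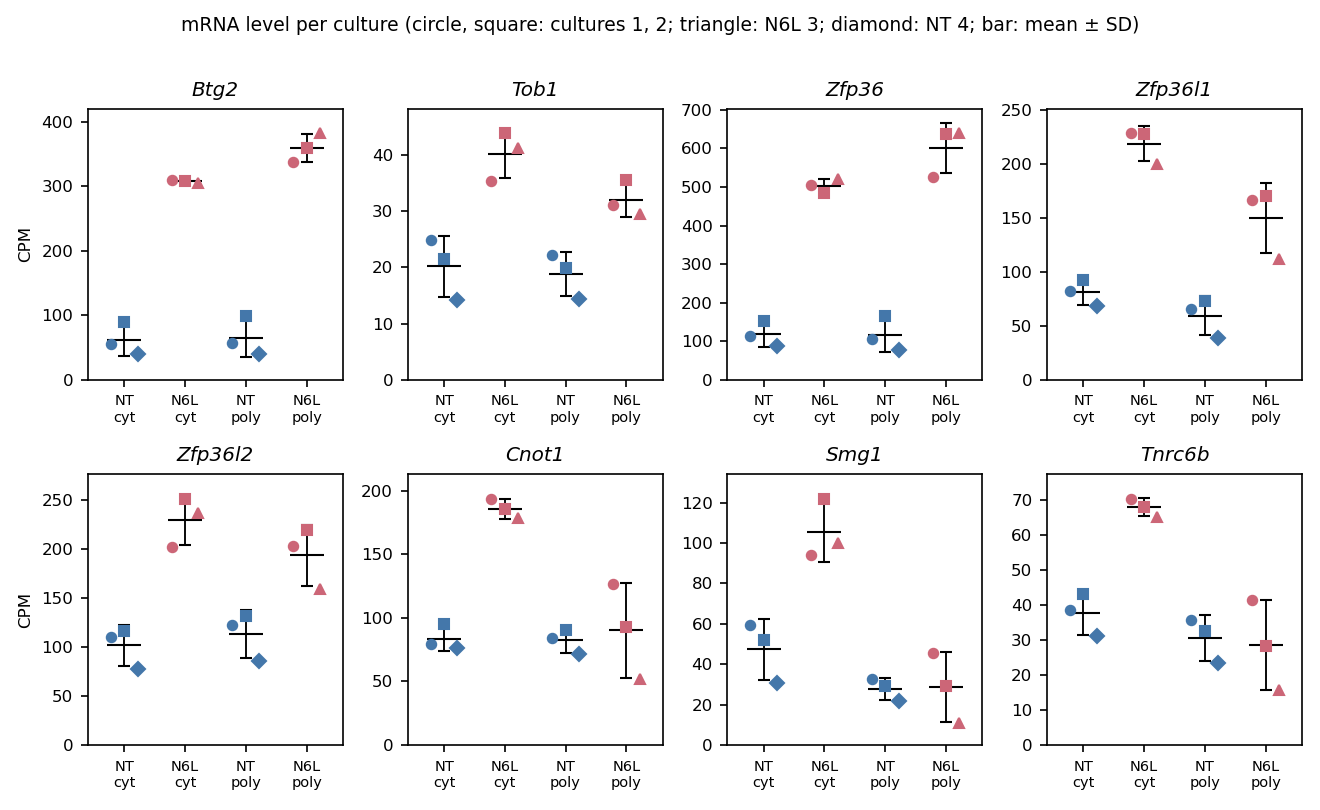
CPM of 8 mRNAs in each library, with NT in blue and N6L in red, for the cytoplasm (cyt) and the polysomes (poly). Horizontal bars are means and error bars SD over 3 cultures. Btg2, Tob1 and the TTP family are higher after N6L in both fractions, whereas Cnot1, Smg1 and Tnrc6b are higher in the cytoplasm and overlap in the polysomes, with N6L culture 3 lowest there.

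The CCR4-NOT complex is the main cytoplasmic deadenylase, and CNOT1 is the scaffold on which its subunits assemble. Of its 10 members, Cnot1 rose in the cytoplasm and the other 9 did not pass, beside 14.5% of all genes that rose and 13.8% that fell. The median log2 change was 0.18, with a range of -0.26 to 1.15. Cnot1 was at 79.4, 95.2 and 76.5 CPM in the NT cultures and 194, 186 and 178 CPM in the N6L cultures, so that the N6L cultures lay far above the NT cultures (2.22-fold, log2 fold change 1.15, SE 0.24, adjusted p = 0.00516). The call stood when any culture was left out, with log2 fold changes of 1.06 to 1.26, and with offsets for length and GC content the change was 0.59 (adjusted p = 0.00269). Its polysomal levels were 84.2, 90.8 and 71.8 CPM in the NT cultures and 126, 92.7 and 51.7 CPM in the N6L cultures. They overlapped (log2 fold change 0.13, SE 0.24, adjusted p = 0.76), and N6L culture 3 held the lowest and N6L culture 1 the highest value. Cnot7, a catalytic subunit, was at 98.5, 90.6 and 77.9 CPM in the NT cultures and 71.7, 94.5 and 73.8 CPM in the N6L cultures in the cytoplasm, with overlapping groups (log2 fold change -0.15, SE 0.20, adjusted p = 0.585). The other catalytic subunits Cnot6, Cnot6l and Cnot8 had log2 changes of 0.0055, 0.43 and -0.19, none of which passed. With the offsets the complex members Cnot6, Cnot7 and Cnot11 fell (adjusted p = 0.0209, 0.0425 and 0.0101), beside 18% of all genes. In the polysomes no CCR4-NOT mRNA passed, beside 6.01% of all genes that rose and 3.66% that fell, and the median was -0.17.

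The other deadenylases did not pass in either fraction, beside 28.3% of all genes in the cytoplasm and 9.67% in the polysomes. Parn, a poly(A)-specific ribonuclease that also trims small RNAs, was at 34.6, 41.3 and 28.4 CPM in the NT cultures and 44.4, 43.9 and 41.3 CPM in the N6L cultures in the cytoplasm. The N6L cultures were all above the NT cultures by a small margin (log2 fold change 0.31, SE 0.17, adjusted p = 0.169), and in the polysomes the levels of 41.5, 44.1 and 34.1 CPM in the NT cultures and 46.5, 41.7 and 36.4 CPM in the N6L cultures overlapped. Pan2 and Pan3, the subunits of the deadenylase that acts first, changed by 0.24 and 0.21 on the log2 scale in the cytoplasm (adjusted p = 0.431 and 0.444).

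Among 6 decapping factors, Dcp1a rose and Lsm1 fell in the cytoplasm, beside 14.5% and 13.8% of all genes. Edc3 rose in the polysomes, beside 6.01% of all genes. Dcp2, the decapping enzyme, was at 47.4, 47.0 and 52.0 CPM in the NT cultures and 47.2, 45.3 and 40.5 CPM in the N6L cultures in the cytoplasm, with overlapping groups (log2 fold change -0.14, SE 0.16, adjusted p = 0.539), although with the offsets it fell (-0.71, adjusted p = 0.012). In the polysomes it was at 49.9, 37.3 and 47.0 CPM in the NT cultures and 39.1, 34.1 and 27.7 CPM in the N6L cultures and did not pass (log2 fold change -0.41, SE 0.16, adjusted p = 0.129). Its activator Dcp1a changed by 0.64 in the cytoplasm (SE 0.18, adjusted p = 0.0202), a call that was lost without N6L culture 2 or NT culture 4 and with the offsets. Lsm1, the subunit that defines the cytoplasmic LSM1-7 ring bound to shortened poly(A) tails, was at 87.7, 65.8 and 99.3 CPM in the NT cultures and 46.5, 52.5 and 50.9 CPM in the N6L cultures. Every N6L culture was below every NT culture (log2 fold change -0.75, SE 0.20, adjusted p = 0.016), but the call was lost without N6L culture 2, NT culture 1 or NT culture 4. The polysomal Lsm1 levels of 99.5, 91.8 and 123 CPM in the NT cultures and 67.1, 91.2 and 114 CPM in the N6L cultures overlapped, with N6L culture 3 inside the NT range, N6L culture 1 below it and N6L culture 2 just below it. Edc3, a scaffold of processing bodies, changed by 0.39 in the cytoplasm (adjusted p = 0.0505) and 0.48 in the polysomes (SE 0.14, adjusted p = 0.0482), the latter close to the limit and lost with the offsets or when any culture other than N6L culture 1 was left out. Dcp1b was near 1 CPM in every library.

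Of the 5′-3′ exonucleases, the nuclear enzyme mRNA Xrn2 rose in the cytoplasm (log2 fold change 0.63, SE 0.21, adjusted p = 0.0369), beside the 14.5% of all genes. The call was lost without N6L culture 2, NT culture 1 or NT culture 4 and with the offsets. Xrn1, which degrades decapped mRNA in the cytoplasm, was at 31.2, 27.6 and 21.5 CPM in the NT cultures and 40.0, 43.6 and 39.4 CPM in the N6L cultures. All N6L cultures were higher, but the change did not pass (log2 fold change 0.61, SE 0.29, adjusted p = 0.12). In the polysomes Xrn1 was at 19.6, 17.6 and 11.9 CPM in the NT cultures and 21.9, 18.4 and 8.01 CPM in the N6L cultures, with overlapping groups and the lowest value in N6L culture 3.

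Of 9 NMD factors, Smg1 and Smg6 rose in the cytoplasm, beside the 14.5% of all genes. No NMD factor passed in the polysomes, beside the 6.01% and 3.66% of all genes that rose and fell. With the offsets Upf1 and Upf3a fell there (-0.41, adjusted p = 0.028, and -0.44, adjusted p = 0.0312), beside 12% of all genes. Smg1, the kinase that phosphorylates UPF1, was at 59.7, 51.8 and 30.5 CPM in the NT cultures and 94.1, 122 and 100.2 CPM in the N6L cultures. The N6L cultures lay above the NT cultures, of which NT culture 4 was the lowest (log2 fold change 1.15, SE 0.37, adjusted p = 0.0344). The Smg1 call was lost without N6L culture 2 or without any one NT culture, with log2 fold changes of 0.89 to 1.35, and with the offsets the change was 0.56 (adjusted p = 0.0413). In the polysomes Smg1 was at 32.5, 29.4 and 22.0 CPM in the NT cultures and 45.7, 29.4 and 10.9 CPM in the N6L cultures, a wide spread among N6L cultures that enclosed all NT cultures (log2 fold change 0.043, SE 0.37, adjusted p = 0.959). Smg6, the endonuclease of the pathway, changed by 0.68 in the cytoplasm (SE 0.15, adjusted p = 0.00651). That call was lost without N6L culture 2, and with the offsets the Smg6 change was 0.27 (adjusted p = 0.0844). Upf1, the central helicase, was at 139, 128 and 147 CPM in the NT cultures and 146, 128 and 143 CPM in the N6L cultures in the cytoplasm and at 103, 129 and 123 CPM in the NT cultures and 114, 83.3 and 109.6 CPM in the N6L cultures in the polysomes. The 2 treatments overlapped in both fractions, with log2 changes of 0.009 (95% interval -0.32 to 0.34) and -0.21 (-0.54 to 0.12). Upf2, a bridge between UPF1 and UPF3, changed by 0.78 in the cytoplasm with a large error (SE 0.35, adjusted p = 0.109).

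Of 7 miRNA silencing mRNAs, 3 rose in the cytoplasm, beside the 14.5% of all genes: Ago4, Tnrc6b and Ago1. The median log2 change was 0.51, and 0.012 with the offsets, under which Tnrc6a, Ago2 and Ago3 were at -0.048, -0.15 and -0.085. Ago2, the Argonaute that can cleave its targets, was at 138, 122 and 90.2 CPM in the NT cultures and 181, 155 and 136 CPM in the N6L cultures in the cytoplasm. The highest NT culture was above the lowest N6L culture, and the change did not pass (log2 fold change 0.43, SE 0.25, adjusted p = 0.199). In the polysomes Ago2 was at 129.6, 117 and 84.3 CPM in the NT cultures and 123, 91.1 and 58.8 CPM in the N6L cultures, and the groups again overlapped (log2 fold change -0.28, SE 0.25, adjusted p = 0.506). Tnrc6a, a GW182 protein that links Argonaute to the deadenylases, was at 40.0, 37.4 and 31.9 CPM in the NT cultures and 48.3, 55.9 and 50.9 CPM in the N6L cultures in the cytoplasm, higher in every N6L culture but not past the test (log2 fold change 0.51, SE 0.25, adjusted p = 0.139). Its paralog Tnrc6b was at 38.6, 43.1 and 31.1 CPM in the NT cultures and 70.4, 68.1 and 65.2 CPM in the N6L cultures and rose (log2 fold change 0.85, SE 0.27, adjusted p = 0.0318), a call kept only without N6L culture 1 or N6L culture 3 among the fits that left out 1 culture. Ago1 changed by 0.80 (SE 0.16, adjusted p = 0.00443) and passed in all 6 of those fits. Ago4 was scarce, with 7, 5 and 3 counts in the NT and 10, 29 and 21 counts in the N6L cytoplasmic libraries. At that depth its log2 change of 1.34 (SE 0.40, adjusted p = 0.0242) was lost in 5 of the 6 fits. With the offsets, Ago1 rose (0.32, adjusted p = 0.032), beside 12.1% of all genes, and neither Tnrc6b (0.25, adjusted p = 0.123) nor Ago4 passed.

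The RNA exosome degrades RNA from its 3′ end with nucleases bound to a barrel-shaped core. Of 11 members, 6 fell in the cytoplasm and none rose, with a median log2 change of -0.70, or -0.35 with the offsets, beside the 13.8% of all genes that fell. The summed level was 975, 969.9 and 1152 CPM in the NT cultures and 708, 728 and 765 CPM in the N6L cultures. The 6 encode parts of the catalytically inactive core: the ring subunits Exosc4, Exosc5, Exosc7 and Exosc8 and the cap subunits Exosc1 and Exosc3. Exosc4 was at 91.7, 87.7 and 116 CPM in the NT cultures and 49.95, 48.1 and 55.4 CPM in the N6L cultures in the cytoplasm (log2 fold change -0.94, SE 0.23, adjusted p = 0.00957). Exosc8 was at 137, 114 and 166 CPM in the NT cultures and 72.9, 73.5 and 73.9 CPM in the N6L cultures (log2 fold change -0.92, SE 0.17, adjusted p = 0.00265). The N6L cultures of both lay well below the NT cultures and close to one another.

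Exosc5 was at 70.3, 73.4 and 87.3 CPM in the NT cultures and 44.2, 37.4 and 42.4 CPM in the N6L cultures (log2 fold change -0.90, SE 0.22, adjusted p = 0.0104), and Exosc1 at 86.0, 73.9 and 104 CPM in the NT cultures and 48.0, 48.3 and 48.8 CPM in the N6L cultures (log2 fold change -0.86, SE 0.15, adjusted p = 0.00246). Exosc3 was at 93.4, 82.8 and 100.2 CPM in the NT cultures and 49.6, 60.7 and 58.8 CPM in the N6L cultures (log2 fold change -0.71, SE 0.15, adjusted p = 0.00535). None of these groups overlapped. Exosc7 also fell (log2 fold change -0.70, adjusted p = 0.0147). The ring subunit Exosc9 and the cap subunit Exosc2 had changes of -0.40 and -0.32 that did not pass. Exosc1, Exosc3 and Exosc8 passed when any culture was left out, Exosc4 and Exosc5 in all fits but the one without N6L culture 2, and Exosc7 in all but those without N6L culture 1 or N6L culture 2. All 6 also passed with offsets for length and GC content, with Exosc1 at -0.92 and Exosc7 at -0.35, beside 18% of all genes that fell.

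The nucleases of the exosome did not pass. Dis3, the main catalytic subunit, was at 69.2, 81.7 and 70.7 CPM in the NT cultures and 72.1, 92.0 and 87.6 CPM in the N6L cultures in the cytoplasm (log2 fold change 0.18, SE 0.23, adjusted p = 0.57). Exosc10, the nuclear exonuclease, was at 106, 99.2 and 98.2 CPM in the NT cultures and 106, 91.4 and 100.5 CPM in the N6L cultures (log2 fold change -0.027, SE 0.17, adjusted p = 0.92), and the treatments overlapped for both genes. The cytoplasmic nuclease Dis3l changed by 0.10 (95% interval -0.21 to 0.41).

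**Figure D3:**
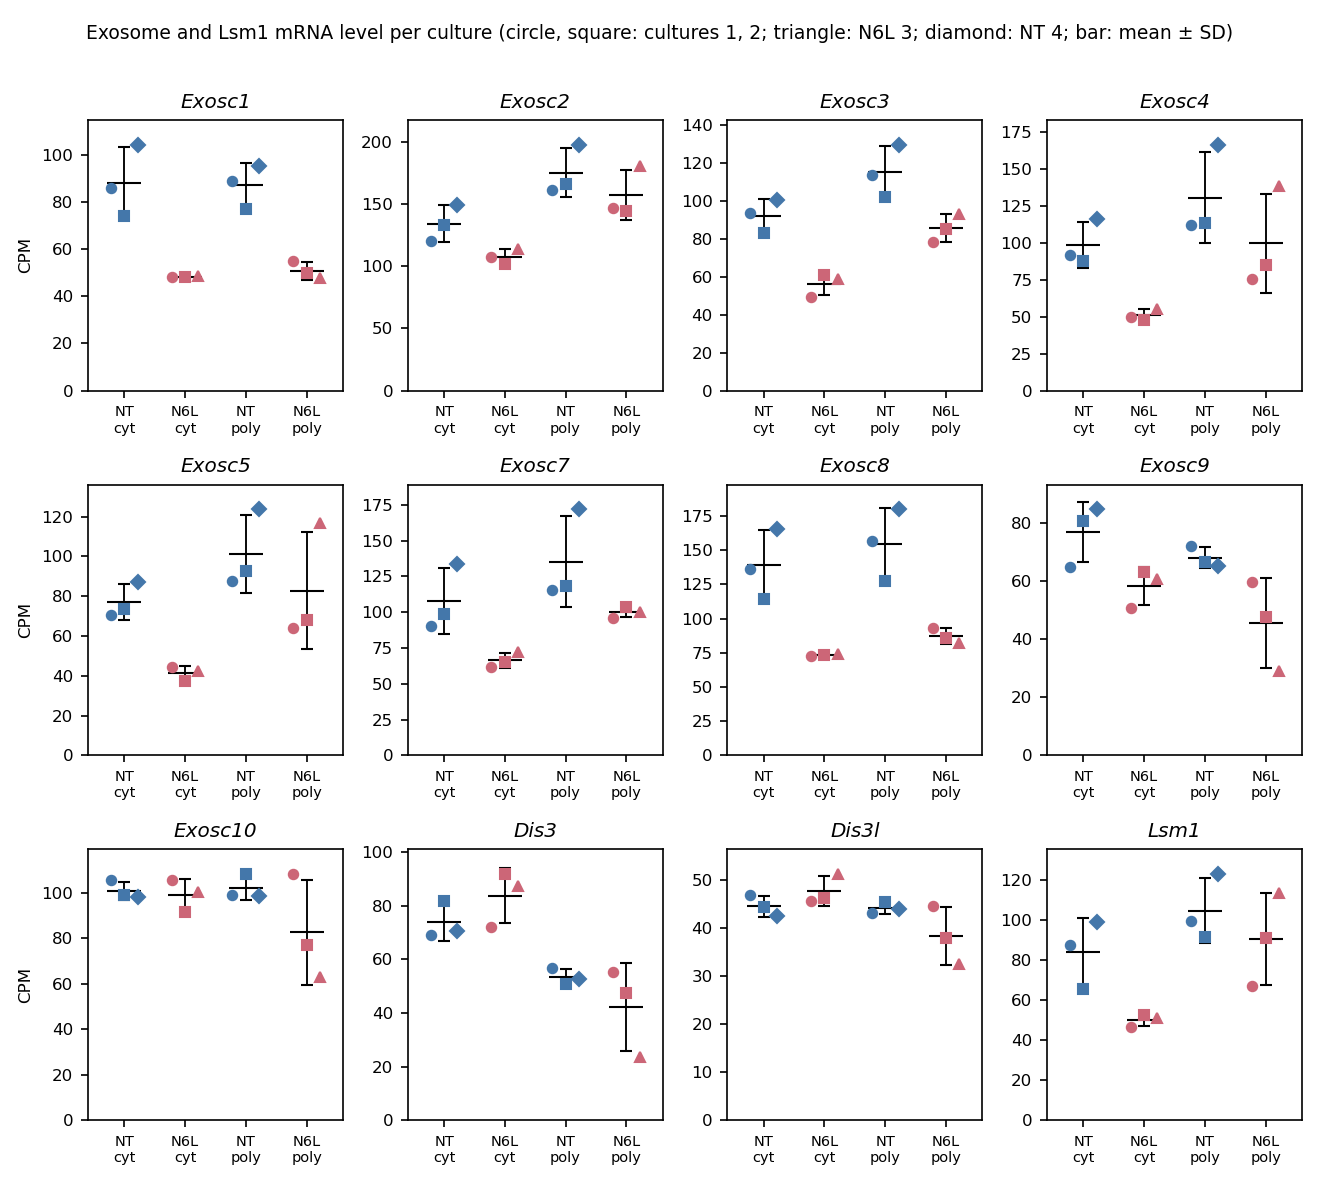
CPM of the 11 exosome mRNAs and of Lsm1 in each library, with NT in blue and N6L in red, for the cytoplasm (cyt) and the polysomes (poly), with means and SD over 3 cultures. The core subunits Exosc1, Exosc3, Exosc4, Exosc5, Exosc7 and Exosc8 are lower after N6L in the cytoplasm, Exosc1 and Exosc8 also passed the test in the polysomes, and the nucleases Exosc10, Dis3 and Dis3l overlap in the cytoplasm.

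The SKI complex feeds cytoplasmic mRNA into the exosome. Skiv2l, its helicase, was at 88.3, 89.9 and 74.4 CPM in the NT cultures and 94.5, 79.2 and 86.4 CPM in the N6L cultures in the cytoplasm and at 70.8, 86.7 and 67.9 CPM in the NT cultures and 79.4, 64.8 and 58.0 CPM in the N6L cultures in the polysomes, and the groups overlapped in both (log2 fold change 0.042, SE 0.16, adjusted p = 0.863 in the cytoplasm). Ttc37, its scaffold, was at 19.1, 33.6 and 15.1 CPM in the NT cultures and 38.6, 48.5 and 47.1 CPM in the N6L cultures, higher in every N6L culture but just short of the limit (log2 fold change 0.99, SE 0.36, adjusted p = 0.0556). It passed without NT culture 2 or N6L culture 3.

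In the polysomes, 6 members rose (Btg2, Zfp36, Zfp36l1, Zfp36l2, Tob1 and Edc3) and 2 fell (Exosc8 and Exosc1), beside 6.01% of all genes that rose and 3.66% that fell. Groups without overlap numbered 9 higher and 8 lower members, beside 13.7% and 11.9% of all genes. Exosc8 was at 157, 127 and 179.9 CPM in the NT cultures and 93.3, 85.7 and 81.8 CPM in the N6L cultures and Exosc1 at 88.8, 77.1 and 95.2 CPM in the NT cultures and 54.9, 49.7 and 47.7 CPM in the N6L cultures. Neither overlapped (log2 fold change -0.83, SE 0.17, adjusted p = 0.00915 for Exosc8, and log2 fold change -0.78, SE 0.15, adjusted p = 0.00821 for Exosc1). Both passed with the offsets, and both calls were lost without N6L culture 2 or NT culture 1. All 11 exosome mRNAs had log2 changes below 0 in the polysomes, with a range of -0.83 to -0.16, and with the offsets 7 of them fell. The median of the 57 members was -0.10, against 0.00081 over all genes. Without N6L culture 3 it was 0.11. Without N6L culture 2 only Btg2 and Zfp36 passed, beside 1.04% of all genes. Without NT culture 1, 3 members passed, beside 1.44%, and without NT culture 4, 5 passed, beside 4.44%. With the offsets 6 rose and 9 fell, beside 9.27% and 12% of all genes.

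**Figure D4:**
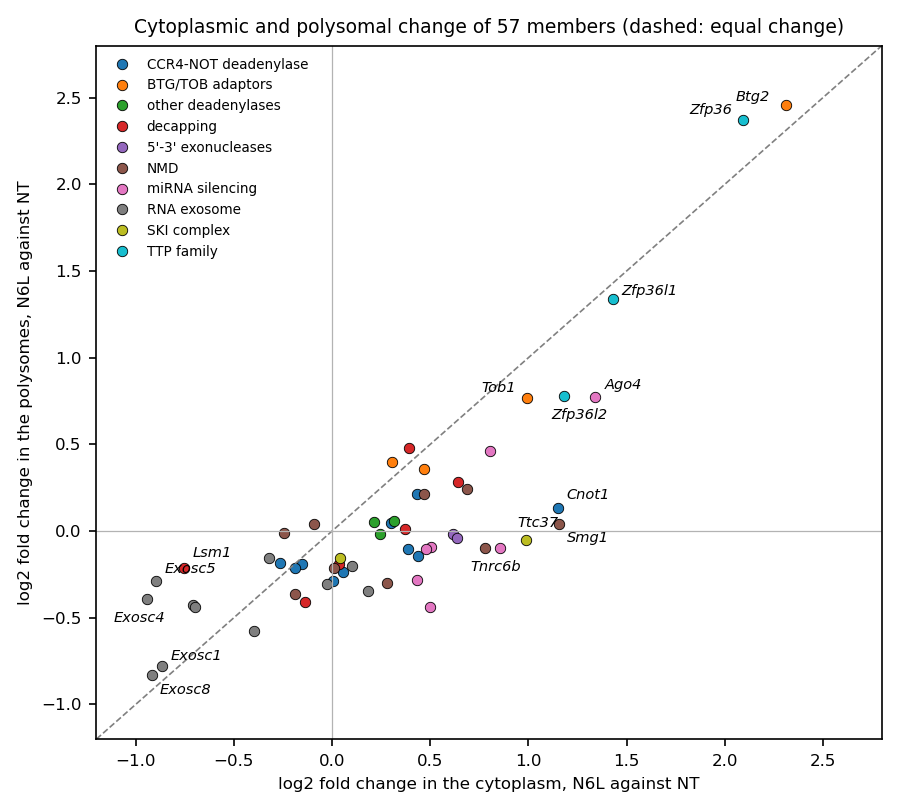
Log2 fold change between N6L and NT in the cytoplasm (horizontal) and in the polysomes (vertical) for each of the 57 members, coloured by role, with the dashed line at equal change. Btg2 and Zfp36 lie at the upper right close to the line, Exosc1 and Exosc8 at the lower left, and Cnot1, Smg1, Ttc37 and Tnrc6b lie near 0 on the vertical axis and between 0.85 and 1.15 on the horizontal one.

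Polysomal and cytoplasmic levels of the same cultures were then compared within each treatment. In NT cultures no member passed (0 of 57, and 0 by DESeq2), beside 0.209% of all genes, and 10 were at an unadjusted p under 0.05, beside 13.4% of all genes. When the fit was blocked on the lysate 0 members passed, and with that block and the offsets 4 did, beside 1.46% and 4.15% of all genes. Without N6L culture 3 in the fit, 3 members passed (Cnot4, Tnrc6a and Upf3b), beside 2.38% of all genes. The lowest log2 polysome-to-cytoplasm values were those of Upf3b (-0.98, SE 0.29), Upf2 (-0.92, SE 0.36) and Tnrc6a (-0.83, SE 0.25). After N6L, 22 members were lower in the polysomes than in the cytoplasm and 6 were higher, beside 20.6% and 18.4% of all genes, and the median log2 ratio of the members was -0.35 against 0.025 over all genes. The 22 members held 6 of 10 CCR4-NOT mRNAs, 5 of 9 NMD mRNAs, 5 of 7 miRNA silencing mRNAs and both exonucleases. With the offsets 2 of those 6, 4 of those 5, 2 of those 5 and neither exonuclease were still called lower. The lowest ratios among the 22 were those of Smg1 (-1.88, SE 0.38), Upf2 (-1.79, SE 0.36) and Upf3b (-1.56, SE 0.29). With the offsets these were -0.76, -1.09 and -1.29, so that their order was reversed. The 6 higher members were Exosc5 (1.002), Exosc4 (0.96), Lsm1 (0.86), Exosc3 (0.60), Exosc7 (0.59) and Exosc2 (0.55). With the offsets Exosc5, Exosc4 and Lsm1 passed, at 0.45, 0.45 and 1.02, and Exosc3, Exosc7 and Exosc2 did not, at 0.24, 0.091 and 0.19. Without N6L culture 2, 9 members passed in all, beside 8.225% of all genes, and without N6L culture 3, 14 passed, beside 11.73%. Blocked on the lysate, 36 passed, beside 53.7% of all genes, and with that block and the offsets 26 passed, beside 32.8%.

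With the offsets, 9 members were lower and 8 higher in this N6L ratio, beside 7.07% and 9.66% of all genes. In all, 11 members then changed sign, 4 of which had been called lower. Cnot6l, called lower at -0.64 (adjusted p = 0.0399), was called higher at 0.66 (adjusted p = 0.00613), so that it counts among the 6 CCR4-NOT mRNAs only without the offsets. Cnot6, Ago2 and Ago3 went from -0.68, -0.79 and -1.03 to 0.33, 0.15 and 0.31 and no longer passed, and Dcp2, not called before, went from -0.40 to 0.74 (adjusted p = 0.0171).

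The translational index (TI), the N6L ratio of polysomal to cytoplasmic level divided by the NT ratio, was tested as an interaction on the log2 scale. No member passed (0 of 57, with a smallest adjusted p of 0.555), and no gene of the 13889 did, a share of 0% (0 members also by DESeq2). At an unadjusted p under 0.05 there were 4 members, beside 7.73% of all genes. A log2 TI below -0.5 was seen for 15 members and one above 0.5 for 3, beside 14.9% and 13.5% of all genes, and the median was -0.25 against 0.0079 (with the offsets, -0.13 against 0.021). The ratios of the cultures did not overlap between treatments in 16 members that were lower and 6 that were higher after N6L, beside 14.4% and 15.3% of all genes.

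Smg1 had log2 ratios of -0.88, -0.82 and -0.47 in the NT cultures and -1.04, -2.05 and -3.19 in the N6L cultures. The N6L ratios were all below the NT ratios but spread widely, and the TI was -1.11 (SE 0.53). Cnot1 had log2 ratios of 0.086, -0.069 and -0.091 in the NT cultures and -0.62, -1.001 and -1.79 in the N6L cultures, with a TI of -1.02 (SE 0.34). Ttc37 had log2 ratios of -0.058, -0.54 and -0.15 in the NT cultures and -0.59, -1.30 and -2.60 in the N6L cultures, with a TI of -1.04 (SE 0.51). For these mRNAs N6L culture 3 gave the lowest ratio. Tnrc6b followed the same pattern with a TI of -0.95 (SE 0.38). With the offsets the TI was -0.43 for Smg1, -0.46 for Cnot1, -0.59 for Ttc37 and -0.19 for Tnrc6b.

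At the other end, Exosc5 had log2 ratios of 0.31, 0.33 and 0.50 in the NT cultures and 0.53, 0.86 and 1.46 in the N6L cultures and a TI of 0.61 (SE 0.31). Exosc4 had log2 ratios of 0.28, 0.37 and 0.52 in the NT cultures and 0.59, 0.82 and 1.32 in the N6L cultures and a TI of 0.55 (SE 0.32). Their N6L ratios were above all NT ratios, and N6L culture 3 gave the highest. Lsm1 and Exosc3 had a TI of 0.54 (SE 0.29) and 0.28 (SE 0.21). With the offsets the TI was 0.27 for Exosc5, 0.24 for Exosc4, 0.67 for Lsm1 and 0.13 for Exosc3. Btg2 had log2 ratios of 0.044, 0.14 and -0.0091 in the NT cultures and 0.13, 0.22 and 0.32 in the N6L cultures. Zfp36 had log2 ratios of -0.11, 0.12 and -0.17 in the NT cultures and 0.055, 0.40 and 0.30 in the N6L cultures. Their TI was 0.15 (95% interval -0.75 to 1.05) and 0.27 (-0.47 to 1.02).

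Transcript length moved with these results. The longest annotated coding transcripts were 15557 nt for Smg1, 8390 nt for Cnot1 and 17332 nt for Tnrc6b, against 1077 nt for Exosc3, 1300 nt for Exosc8, 2790 nt for Zfp36 and 2743 nt for Btg2. In the cytoplasm, 6 of the 13 members under 2500 nt fell and 1 rose, with a median log2 change of -0.40, whereas 7 of the 21 members over 5000 nt rose and none fell, with a median of 0.51. Of all genes under 2500 nt, 25.7% fell and 5.13% rose, with a median of -0.31, and of all genes over 5000 nt, 31.3% rose and 2.24% fell, with a median of 0.46. For the polysome-to-cytoplasm ratio after N6L, 16 of the 21 long members were lower, with a median of -0.79, against 60.2% and a median of -0.72 for all genes over 5000 nt. Over the 57 members, Spearman's rho between length and the log2 change was 0.57 in the cytoplasm and -0.70 for the N6L ratio, and over 13867 genes it was 0.50 and -0.63. These are correlations across genes that share the same libraries, and they are given as a description. The offsets, which model the trend with length and GC content in each library, left values of 0.29 and -0.0095 over the members and 0.056 and -0.066 over all genes. In the polysomes rho over the members was 0.33 as reported and 0.39 with the offsets, against 0.13 and 0.021 over all genes. The share of counts from mitochondrial genes also differed between treatments, at 0.835%, 0.454% and 0.966% in NT and 0.242%, 0.189% and 0.121% in N6L cytoplasm, and its part in the results was not tested.

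**Figure D5:**
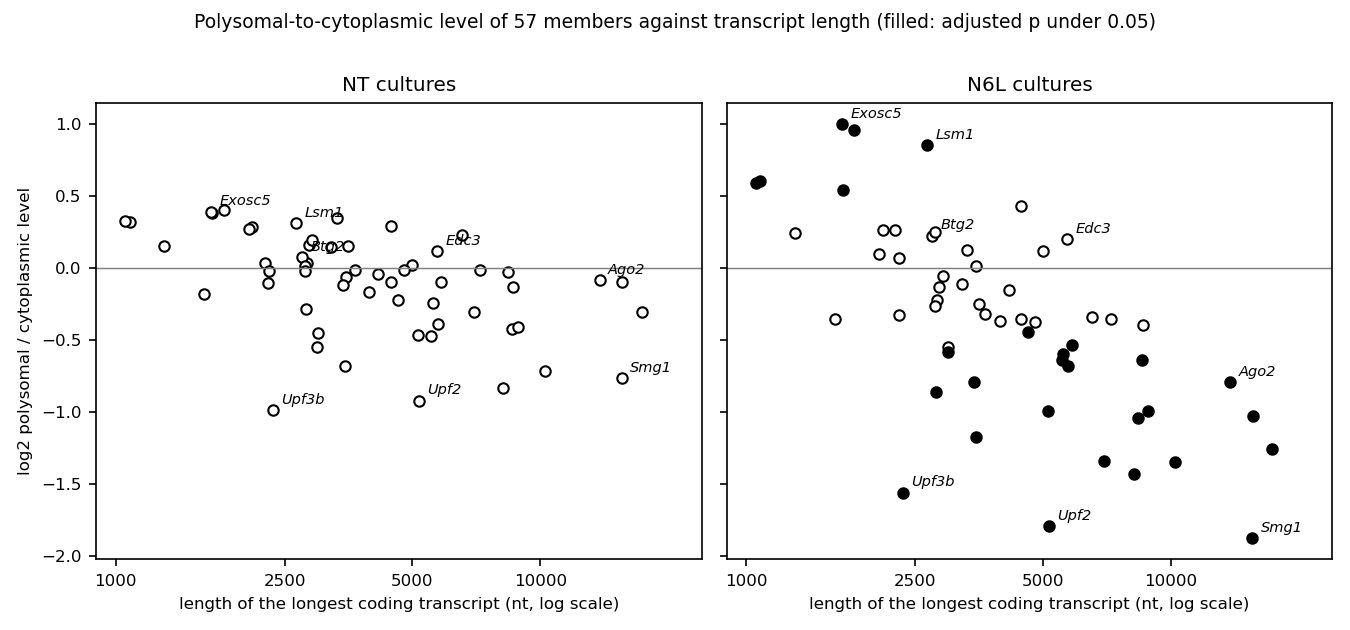
Log2 ratio of polysomal to cytoplasmic level of the 57 members against the length of the longest coding transcript (log scale), in NT cultures (left) and N6L cultures (right). Filled points passed an adjusted p of 0.05, which 0 members did in NT and 28 did after N6L, and in both panels the longer mRNAs lie lower.

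Per length of transcript, the most abundant members in NT cytoplasm were Exosc8 at 107 CPM per kb, Exosc7 at 102 and Exosc3 at 85.5 CPM per kb. After N6L the highest was Zfp36, whose level went from 42.2 to 180.3 CPM per kb, while Exosc8 went to 56.5. The least abundant were Ago4 at 0.0301 and Dcp1b at 0.324 CPM per kb in NT cytoplasm.

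Among 52 further decay factors, of which 51 were tested and Exosc6 was listed at 0, 6 rose and 9 fell in the cytoplasm. The shares of all genes were 14.5% and 13.8%. With the offsets 5 rose and 13 fell, beside 12.1% and 18% of all genes. The 9 that fell held the 6 LSM ring subunits Lsm2 to Lsm7. These are partners of Lsm1 in the LSM1-7 ring (and of Lsm8 in the nucleus). The largest decreases were those of Lsm2 (-1.45, SE 0.25), Lsm4 (-1.202, SE 0.28) and Lsm5 (-1.17, SE 0.24). The exon junction complex mRNAs Magoh, Rbm8a and Eif4a3 made up the remaining 3, of which Magoh and Eif4a3 did not pass with the offsets (adjusted p = 0.133 and 0.137), and Eif4a3 passed in 1 of the 6 fits that left out a culture. The largest increases were Zc3h12a, encoding the endonuclease Regnase-1 (1.29, SE 0.22), Samd4, encoding the Smaug protein (1.07, SE 0.22), and the uridylyltransferase Tut4 (1.06, SE 0.28). In the polysomes 2 of the 51 rose (Zc3h12a and Nudt16) and 3 fell (Lsm2, Lsm5 and Rbm8a), beside the 6.01% and 3.66% of all genes. With the offsets 4 rose and 12 fell there, beside 9.27% and 12% of all genes. Zc3h12a passed in 5 of the 6 fits that left out a culture, Nudt16 in 1, and Lsm2, Lsm5 and Rbm8a in 2 each. Of 6 miRNA biogenesis mRNAs, Xpo5 rose in the cytoplasm, a call lost with the offsets, and Dicer1 fell in the polysomes (-0.77, SE 0.19), where it passed in 1 of those 6 fits.

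Lists of mRNAs known as targets of these pathways were measured in the same libraries. Of 24 mRNAs with AU-rich elements, 11 rose in the cytoplasm and none fell, beside the 14.5% and 13.8% of all genes, with a median log2 change of 0.61, and 10 rose in the polysomes, beside 6.01% of all genes. With the offsets 11 rose and 1 fell in the cytoplasm, beside 12.1% and 18% of all genes. The largest cytoplasmic increases past the test were Egr1 (1.69, SE 0.29), Dusp1 (1.66, SE 0.27) and Cxcl2 (1.66, SE 0.44), while Myc, Ccnd1 and Vegfa did not pass. Of 15 mRNAs known to be sensitive to NMD, 7 fell and 2 rose in the cytoplasm, beside the 13.8% and 14.5% of all genes, with a median of -0.64, or -0.40 with the offsets. In the polysomes 5 fell and 2 rose, beside the 3.66% and 6.01% of all genes, with a median of -0.21. The cytoplasmic decreases were led by the snoRNA host Gas5 (-1.18, SE 0.22), Gadd45a (-1.13, SE 0.15) and the snoRNA host Snhg12 (-1.10, SE 0.18), and the increases were the stress-induced transcription factor Atf3 (1.44, SE 0.29) and Gadd45b (1.33, SE 0.25). Levels alone do not measure decay, and the rate at which these mRNAs are made or degraded was not measured here.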

How the data were processed

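Cytoplasmic and polysomal RNA of 6 mPDAC cultures was sequenced as TruSeq Stranded polyA+ libraries. The authors deposited raw, unscaled counts per gene in 48 sets, with 4 technical replicates behind every one of the 12 libraries. The submitters' processing notes name bcl2fastq 2.18.0.12, STAR, HTSeq 0.5.3 and mm10. No source used here gives the annotation, the strand option or the handling of multiply mapped reads, so paralogs and overlapping genes are uncertain to that extent. Technical replicates, which differed by about as much as counting error (the ratio of chi-square to its degrees of freedom was 1.02 to 1.04, against at least 20.7 between cultures), were summed. Title and description disagreed on the culture for 3 sets of counts from N6L cytoplasm, which were kept by title and left out in an alternative. Gene symbols, transcript lengths and positions are those of GENCODE vM21 (GRCm38), where 50376 of the 50600 counted genes were present. Promoters came from RefSeq (GRCm38.p6).

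After filterByExpr and TMM scaling, a quasi-likelihood model (edgeR 4.0.16, R 4.3.3) with 1 mean per treatment and fraction was fitted to all 12 libraries, which share the spread, with Benjamini-Hochberg adjustment over 13889 genes. SE is the log2 fold change divided by the square root of F, and intervals are 95%. The fit was tested on simulated counts, drawn independently for each library from a common mean per gene apart from the genes changed. That simulation held no trend with length or GC content, no shared lysate and no outlying library, so it does not cover these. Log2 ratios per culture use a prior count of 2. The labels do not say that cultures were independent, so p-values measure the spread between these cultures. DESeq2 1.42.0 served as an alternative, and the offsets were natural splines (4 degrees of freedom each) of log2 deviation on length and GC content, fitted per library.

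Pairing of cytoplasm with polysomes rests on the shared lysate of each culture. The correlation of deviations from the mean of the group ranged from 0.364 to 0.645 over NT cultures and from 0.0368 to 0.229 over N6L ones. The members, the other lists and the rule for named genes were chosen with earlier results of these data known. The rule took the 6 largest increases and decreases past the limit without overlap in the cytoplasm, 4 of each in the polysomes, the 4 highest and lowest TI values at a mean of at least 10 CPM, and 14 fixed members, while genes named beyond it were chosen after their values were seen, as were the promoter motifs and the heptamer.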

Additional observations from a re-analysis of the deposited data

How the results depend on the processing

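Values below are for the 57 members, out of 19 alternatives to the fit reported. With offsets for transcript length and GC content, the median log2 change was -0.064 in the cytoplasm, 0.037 for the polysome-to-cytoplasm ratio in NT and -0.13 after N6L, 15 members passed in the polysomes and 17 in the N6L ratio, and 11 N6L ratios changed sign, among them Dcp2 (0.74), Ago2 (0.15) and Cnot6l, which was called lower as reported and higher with the offsets (0.66). Fits of only the groups compared called 33 members in the cytoplasm, 3 in the polysomes and 1 in the NT ratio. Beside these stood 42.2%, 2.46% and 1.06% of all genes. Scaling by library size alone gave medians of 0.44 in the cytoplasm and -0.10 in the NT ratio. Without a filter, 5 members passed in the NT ratio and 2 (Smg1 and Cnot1) in the TI, beside 2.497% and 0.44% of all genes. The cause of these differences was not tested.

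Leaving out 1 culture at a time gave 9 to 23 calls and medians of 0.20 to 0.38 in the cytoplasm, 2 to 8 calls and -0.25 to 0.11 in the polysomes, 0 to 3 calls in the NT ratio and 9 to 29 in the N6L ratio. In the same order, the shares of all genes called were 9.24% to 28.69%, 1.04% to 11.2%, 0% to 2.38% and 8.225% to 41.77%.

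With the culture as a replicate block, 36 members passed in the N6L ratio and 0 in the NT ratio and the TI. With that block and the offsets, 26 passed in the N6L ratio (median -0.13) and 4 in the NT ratio (median 0.023), and 3 members called lower as reported were called higher (Cnot6l at 0.66, Cnot6 at 0.33 and Ago3 at 0.32), while Dcp2 and Ago2 were at 0.73 and 0.16. NT and N6L cultures share only the numbers 1 and 2, with correlations of 0.228 and 0.0455 in the cytoplasm. Blocked on that number, 25 members passed in the cytoplasm and 7 in the polysomes, beside 34.11% and 9.76% of all genes. With that block and the offsets 18 and 12 passed, beside 32.03% and 21.74%, and the cytoplasmic median was 0.0086. The counts that are not given stayed within 1.5 times those reported, under RLE size factors, DESeq2, a minimum of 10 counts, technical replicate a alone and without the conflicting labels. Ago4 had the fewest counts of the members, 3 to 29 in a library.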
